A study of Mus musculus with 6 samples.

Results

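Otx2, Pou3f1, Sox3, Foxd3, Tcf15 and Sall2 are transcription factors linked to the formative phase of pluripotency, the step between the naive state of the early epiblast and the primed state that can enter the germ layers. They were taken by gene symbol from a table of 19532 genes, and all 6 were found and passed the filter on low counts. Transcripts of single mouse embryonic stem cells were counted with SORT-seq, in which single cells are sorted into plate wells, each 3' end is read with a random tag (a unique molecular identifier, UMI), and each well has its own barcode. The established lines R1 and IB10 each gave 1 library in each of 3 cultures, so every culture has 2 libraries of 188 wells. All cultures held serum-free N2B27 medium with LIF on plates coated with gelatin and fetal calf serum. LIF_2i added CHIR99021 at 3 µM, which blocks GSK3 and so raises WNT signalling, and PD325901 at 0.1 µM, which blocks MEK. Rosette_LIM replaced CHIR99021 by IWP2 at 2 µM, which stops the release of WNT proteins, and kept the MEK inhibitor at 0.1 µM; R1 had been through 6 and IB10 through 5 passages in it. Primed_4d had FGF2 at 12 ng/ml, Activin A at 20 ng/ml and IWP2 at 2 µM for 4 days, with no MEK inhibitor listed. R1 was at passage 24 and IB10 at passage 28 in LIF_2i and primed_4d, against 28 and 33 in rosette_LIM, so passage moves with the rosette culture and the 2 cannot be told apart.

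Naive pluripotent cells are held by LIF and by factors such as Klf4, Tfcp2l1 and Esrrb. When FGF and MEK signalling are free to act these factors are lost, and a formative programme takes their place in which Otx2 and the POU factor Pou3f1 (also called Oct6) redirect Pou5f1 to other enhancers. Sox3 belongs with Sox2 to the SOXB1 family, Foxd3 is a forkhead factor of the epiblast and of neural crest, Tcf15 is a basic helix-loop-helix factor that pairs with E proteins and is held back by Id proteins, and Sall2 is a zinc finger protein of the Spalt family.

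The 6 genes followed 3 courses. Otx2 was about as high in rosette_LIM as in primed_4d and low in LIF_2i. Pou3f1, Sox3, Tcf15 and Sall2 were low in LIF_2i and rosette_LIM and high in primed_4d, and Pou3f1 had by far the largest rise of the 6, 63.5-fold from LIF_2i. Foxd3 stayed between 47.6 and 71.2 CPM (UMIs scaled to a common library total) in all 6 libraries.

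On GRCm38, Otx2 lies on chromosome 14 from 48657677 to 48673819 (minus strand), with up to 6 exons in a transcript. Sall2 is on the same chromosome from 52311172 to 52328762 (minus strand). Pou3f1 (4, from 124656807 to 124660655, plus strand), Foxd3 (4, from 99656299 to 99658622, plus strand) and Sox3 (X, from 60891366 to 60893430, minus strand) are genes of 1 exon, and Tcf15 (2, from 152143561 to 152149097, plus strand) has 2. The long noncoding RNA Otx2os1 overlaps Otx2 on the opposite strand, and held 0 to 4 UMIs in a library. Gm2164 overlaps Pou3f1 on the opposite strand, and is not among the rows analysed here. The sources used here do not say whether the counting used strand.

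The promoters of Otx2, Foxd3 and Sall2 are printed, as no window was found for Pou3f1, Sox3 and Tcf15. They include a member that rose already in rosette_LIM (Otx2), one with no called change (Foxd3) and one that rose in primed_4d (Sall2). Each window runs from 250 bases before to 50 bases after a transcript start in RefSeq (GRCm38.p6), 5′ to 3′ on the gene's strand. RefSeq gives 4 windows for Otx2 and 2 for Sall2, of which the one with a match to a searched motif is shown, and 1 for Foxd3. Capitals mark the matches.
Otx2, chr14:48665060-48665359, minus strand: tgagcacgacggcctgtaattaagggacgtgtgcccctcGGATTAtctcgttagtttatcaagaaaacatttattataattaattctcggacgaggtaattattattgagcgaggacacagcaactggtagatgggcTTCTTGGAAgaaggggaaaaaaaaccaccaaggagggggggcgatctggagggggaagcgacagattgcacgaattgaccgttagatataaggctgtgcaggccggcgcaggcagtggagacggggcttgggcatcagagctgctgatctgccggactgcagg
Foxd3, chr4:99656049-99656348, plus strand: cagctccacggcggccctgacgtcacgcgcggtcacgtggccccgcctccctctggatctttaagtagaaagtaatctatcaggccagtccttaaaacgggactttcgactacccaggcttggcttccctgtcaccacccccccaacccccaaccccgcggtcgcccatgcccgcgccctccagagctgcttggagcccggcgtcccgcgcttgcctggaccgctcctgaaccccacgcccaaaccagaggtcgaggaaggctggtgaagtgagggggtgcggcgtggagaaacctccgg
Sall2, chr14:52316274-52316573, minus strand: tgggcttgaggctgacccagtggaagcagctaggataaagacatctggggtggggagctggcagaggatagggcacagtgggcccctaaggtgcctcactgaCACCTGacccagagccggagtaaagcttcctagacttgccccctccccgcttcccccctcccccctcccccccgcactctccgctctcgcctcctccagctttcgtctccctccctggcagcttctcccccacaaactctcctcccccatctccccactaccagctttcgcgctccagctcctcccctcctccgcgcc
Motifs were searched on both strands: TAATCC (bound by OTX factors), ATGCAAAT (the octamer of POU factors), CTTTGAT (TCF/LEF), ACAAAG (SOX), CAGGTG (an E-box of helix-loop-helix factors), TTCNNNGAA (STAT), CCGGAAG (ETS) and CAGACA (SMAD). In the Otx2 window the OTX motif stands on the opposite strand (GGATTA, at −211 from the start), and the STAT motif reads TTCTTGGAA at −113. The Sall2 window holds the E-box on the opposite strand (CACCTG, at −148), and none of the 8 motifs is in the Foxd3 window, the other 3 windows of Otx2 or the other window of Sall2. Of all 32851 promoter windows of this length, 7.06% hold the OTX motif, 8.3% the STAT motif and 20.2% the E-box. The shares of the other motifs are 1.74% for the octamer, 3.73% for TCF/LEF, 18.7% for SOX, 8.86% for ETS and 21.0% for SMAD. Matches are letters in a window and were not tested for binding.

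The libraries held 4675388 to 7806882 UMIs, with a median well between 11285 UMIs in R1 primed_4d and 41501 in IB10 LIF_2i. R1 primed_4d stood apart in that 84 of its 188 wells held under 6000 UMIs, against 4 to 38 in the others. In R1 LIF_2i, 2 large wells held 13.7% of the UMIs. The cells carried the RNA of pluripotent cells in every culture: all 7 pluripotency markers (among them Pou5f1, Sox2 and Nanog) were present, with summed levels of 5011 to 5409 CPM in LIF_2i, 5377 to 5710 in rosette_LIM and 5239 to 5738 in primed_4d. Dppa5a, at 2406 to 3376 CPM, was the largest part of each sum, so the sums do not show each marker's course. Nanog went from 30.3 (R1) and 39.7 (IB10) CPM in LIF_2i to 19.5 and 3.02 CPM in primed_4d. Nanog, Sox2 and Sall4 were called lower in primed_4d than in LIF_2i, and Utf1 and Tdgf1 higher. Paraxial mesoderm genes, where Tcf15 also acts, summed to 0.171 to 1.93 CPM over 4 genes in any library, with Msgn1 at 0 throughout. The 6 neural crest genes are of a tissue that needs Foxd3. They summed to 15.1 to 18.4 CPM in LIF_2i, 8.13 to 11.5 in rosette_LIM and 6.42 to 9.63 in primed_4d. Tfap2a made up most of the LIF_2i sums (17.0 and 10.1 CPM in R1 and IB10) and was at 2.57 and 1.70 CPM in primed_4d. Sox10 went the other way, with 0 and 1 UMIs in LIF_2i and 14 and 10 in primed_4d.

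edgeR's quasi-likelihood test compared the cultures over the 6 library sums with the cell line as a block. It called 5.55% of 12098 genes in rosette_LIM against LIF_2i, 3.2% higher and 2.35% lower. Of the 6 members 2 were called higher, Otx2 and Pou3f1. Against LIF_2i, primed_4d had 37.9% of genes called, 18.3% higher and 19.6% lower, and 5 of the 6 members were higher, all but Foxd3. Between primed_4d and rosette_LIM 36.1% of genes were called, 17.2% higher and 19.0% lower, and 4 members were higher: Pou3f1, Sox3, Tcf15 and Sall2. Calls of at least 4-fold higher were rarer. They took 0.339% of genes in rosette_LIM against LIF_2i, where Otx2 was one of them. They took 4.51% in primed_4d against LIF_2i, where all 5 called members were among them, and 3.25% in primed_4d against rosette_LIM, where Pou3f1, Sox3 and Sall2 were. The comparisons share libraries, so a member's values in them are not independent. The median member differed by 0.43 (log2) in rosette_LIM against LIF_2i, 2.49 in primed_4d against LIF_2i and 2.14 in primed_4d against rosette_LIM, and the median of all genes tested by 0.00, −0.01 and 0.00. The members were chosen with earlier results of these data known, so these counts and medians describe the set and do not test it. No member was called by edgeR between IB10 and R1, where 0.752% of genes were. Of the 6 members 1, Foxd3, had an unadjusted edgeR p under 0.05, as had 1296 of all 12098 genes tested. There limma called 0 members, as did DESeq2 for the 3 members to which it gave an adjusted p (Pou3f1, Foxd3 and Tcf15).

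Libraries of the cultures did not overlap for 4 members in rosette_LIM against LIF_2i, 5 in primed_4d against LIF_2i and 4 in primed_4d against rosette_LIM. With 2 libraries a group that is common: 49.1%, 68.6% and 65.5% of all genes tested were apart in the same way.

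**Figure D1:**
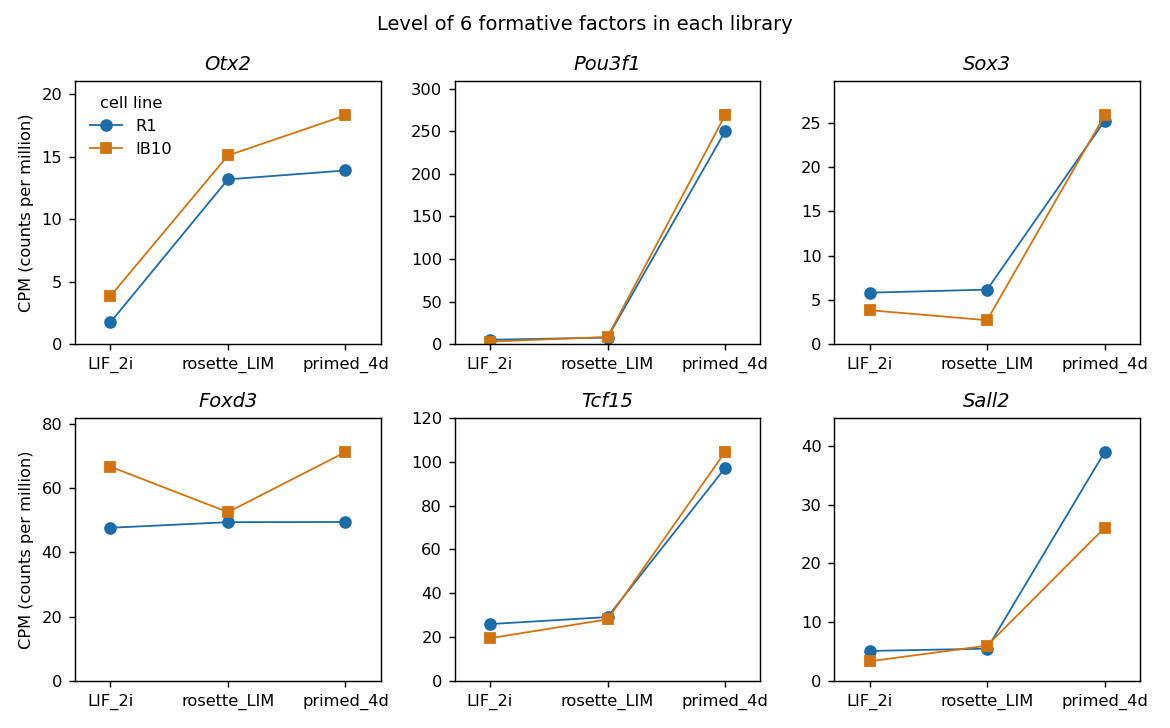
Level of each factor in CPM (vertical axis, linear, from 0) in the 6 libraries by culture (horizontal axis); circles are R1, squares IB10, and lines join libraries of a line. Otx2 is high in rosette_LIM and primed_4d, Foxd3 keeps its level, and the other 4 factors are high in primed_4d alone, Pou3f1 at 249.8 and 268.6 CPM.

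Otx2, the homeodomain factor that starts the exit from the naive state, was read 12 times in R1 and 30 times in IB10 in LIF_2i, 77 and 78 times in rosette_LIM, and 65 and 97 times in primed_4d. As levels these are 1.75 and 3.84 CPM, then 13.2 and 15.1 CPM, then 13.9 and 18.3 CPM. Both LIF_2i libraries lay below all 4 others, and the rosette_LIM and primed_4d libraries overlapped. The mean rose from 2.80 ± 1.48 CPM (SD, n = 2) to 14.1 ± 1.35 CPM in rosette_LIM, 5.18-fold in the fit (log2 2.37 ± 0.30 SE, edgeR adjusted p = 0.000264), by 2.74 in R1 and 1.90 in IB10. Primed_4d, at 16.1 ± 3.12 CPM, was 5.78-fold above LIF_2i (log2 2.53 ± 0.30, edgeR adjusted p = 1.05e-05). The difference between primed_4d and rosette_LIM, log2 0.16 ± 0.25, did not pass the test (edgeR adjusted p = 0.656). Both rises from LIF_2i kept their call in all 17 other ways of processing that were tried.

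Neuroectoderm genes were summed beside Otx2 in each culture. The 7 listed (Sox1, Pax6, Nes, Tubb3, Map2, Pax3 and Hes5) summed to 78.5 to 89.3 CPM in LIF_2i, 172.9 to 215.9 CPM in rosette_LIM and 79.1 to 150.4 CPM in primed_4d. Tubb3, a neuronal tubulin, made up most of the sum in LIF_2i (69.7 and 65.2 CPM) and rosette_LIM (177.7 and 133.0 CPM), and was at 50.1 and 31.5 CPM in primed_4d. The sums therefore do not show the course of the other genes. From rosette_LIM to primed_4d (R1 and IB10), Nes went from 15.6 and 16.7 to 49.0 and 16.8 CPM. Sox1 went from 9.94 and 7.55 to 27.8 and 14.2 CPM, and Map2 from 2.23 and 1.55 to 5.8 and 3.21 CPM. Pax6 rose in R1 (10.3 to 16.9 CPM) and fell in IB10 (14.1 to 12.8 CPM). Pax3 was at 0 in rosette_LIM. The part of these 7 genes in the Otx2 result was not tested.

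Pou3f1, the POU factor of the formative epiblast, was read 36 times in the R1 and 24 times in the IB10 library of LIF_2i, 45 and 44 times in those of rosette_LIM, and 1168 and 1423 times in those of primed_4d. That is 5.24 and 3.07 CPM, 7.71 and 8.52 CPM, and 249.8 and 268.6 CPM. The primed_4d libraries stood far above the other 4. The rise in primed_4d was 63.5-fold from LIF_2i (log2 5.99 ± 0.19, edgeR adjusted p = 5.24e-11) and 31.6-fold from rosette_LIM (log2 4.98 ± 0.18, edgeR adjusted p = 2.12e-10). From LIF_2i the rise was 5.51 in R1 and 6.31 in IB10 on the log2 scale. Rosette_LIM was 2.01-fold above LIF_2i (log2 1.01 ± 0.26, edgeR adjusted p = 0.0352), by 0.57 in R1 and 1.39 in IB10. That call is weak: it was lost in 9 of 17 other ways of processing, with values of 0.43 to 1.46. Among these, without the R1 LIF_2i library the value was 1.46 (edgeR adjusted p = 0.0781), without the IB10 LIF_2i library 0.61 (0.515), without the IB10 rosette_LIM library 0.92 (0.0523), and without the cell line as a block 1.01 (0.0664). Without the 2 large wells of R1 LIF_2i it was 0.95 (edgeR adjusted p = 0.0683).

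Sox3, the SOXB1 factor on the X chromosome, was at 5.82 and 3.84 CPM in LIF_2i, 6.17 and 2.71 CPM in rosette_LIM, and 25.2 and 25.9 CPM in primed_4d, from 40 and 30, 36 and 14, and 118 and 137 UMIs. The LIF_2i and rosette_LIM libraries overlapped and both primed_4d libraries lay above them. Primed_4d was 5.45-fold above LIF_2i (log2 2.45 ± 0.28, edgeR adjusted p = 8.49e-06) and 5.77-fold above rosette_LIM (log2 2.53 ± 0.30, edgeR adjusted p = 1.24e-05). The latter was 3.13 (log2) without the R1 rosette_LIM library and 2.13 without the IB10 rosette_LIM library, the ends of the range with single libraries left out. Rosette_LIM against LIF_2i gave log2 −0.08 ± 0.34 (edgeR adjusted p = 0.933). It took opposite signs in the lines, 0.12 in R1 and −0.45 in IB10, a difference that was not tested. The part of the neuroectoderm genes above in the Sox3 result was not tested.

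Tcf15, the helix-loop-helix factor, held 25.9 and 19.5 CPM in LIF_2i, 29.1 and 28.1 CPM in rosette_LIM, and 97.1 and 104.4 CPM in primed_4d, from 145 to 553 UMIs in a library. The cultures did not overlap in any comparison, but the step from LIF_2i to rosette_LIM was small. It came to log2 0.37 ± 0.17 and did not pass (edgeR adjusted p = 0.234), and with ERCC spike-in RNA as the scale its sign was the opposite (−0.18). Primed_4d was 4.52-fold above LIF_2i (log2 2.18 ± 0.16, edgeR adjusted p = 7.99e-08) and 3.495-fold above rosette_LIM (log2 1.81 ± 0.16, edgeR adjusted p = 5.77e-07).

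Sall2, the Spalt zinc finger gene, had 5.10 and 3.33 CPM in LIF_2i, 5.48 and 6.00 CPM in rosette_LIM, and 38.9 and 26.1 CPM in primed_4d, from 26 to 35 UMIs in each of the first 4 libraries and 182 and 138 in the last 2. Primed_4d lay above the rest, and its libraries differed more from each other (32.5 ± 9.11 CPM, SD, n = 2) than those of Tcf15 (100.8 ± 5.15 CPM). The rise was 7.76-fold from LIF_2i (log2 2.96 ± 0.25, edgeR adjusted p = 3.92e-07) and 5.54-fold from rosette_LIM (log2 2.47 ± 0.25, edgeR adjusted p = 2.69e-06). Rosette_LIM against LIF_2i gave log2 0.49 ± 0.30 (edgeR adjusted p = 0.41), and −0.06 with the spike-in scale.

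Foxd3, the forkhead factor, was at 47.6 and 66.6 CPM in LIF_2i, 49.4 and 52.5 CPM in rosette_LIM, and 49.4 and 71.2 CPM in primed_4d, from 231 to 520 UMIs in a library. All 3 cultures overlapped. The differences were −0.12 ± 0.15 (log2, rosette_LIM against LIF_2i, edgeR adjusted p = 0.729), 0.09 ± 0.15 (primed_4d against LIF_2i, 0.656) and 0.21 ± 0.15 (primed_4d against rosette_LIM, 0.307). IB10 was above R1 in each culture, by 0.38 ± 0.12 in the fit, which did not pass (edgeR adjusted p = 0.202). Without the R1 rosette_LIM library this line difference was 0.52 (edgeR adjusted p = 0.00927), and without the IB10 rosette_LIM library also 0.52 (0.00971). For the other members the line term was 0.45 ± 0.22 (Otx2, edgeR adjusted p = 0.504), −0.01 ± 0.15 (Pou3f1, 0.992), −0.39 ± 0.24 (Sox3, 0.634), −0.09 ± 0.13 (Tcf15, 0.874) and −0.41 ± 0.21 (Sall2, 0.524), as IB10 minus R1.

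**Figure D2:**
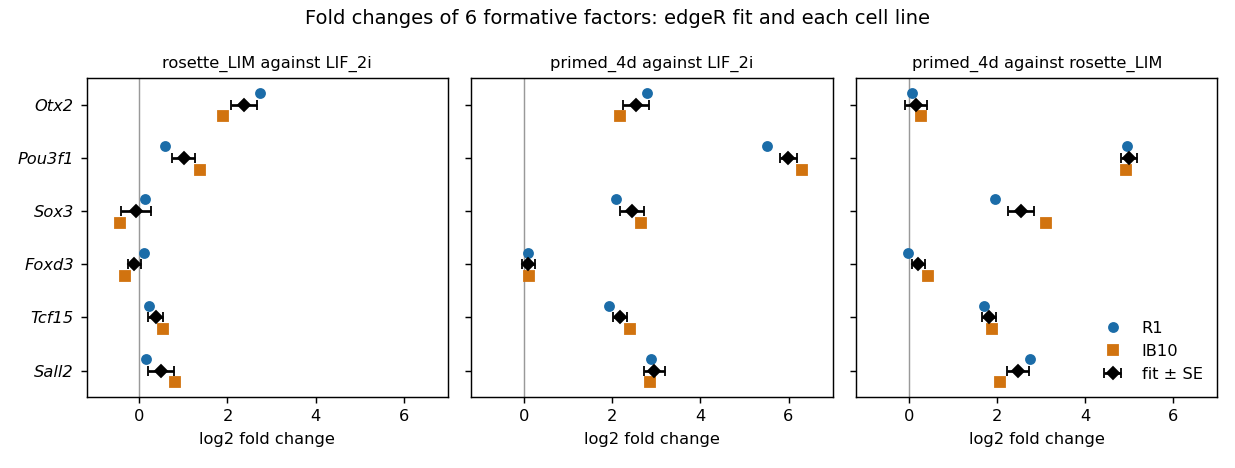
Log2 fold change (horizontal axis) of each factor in 3 comparisons (panels): diamonds are the edgeR fit ± SE over both lines, circles R1 alone and squares IB10 alone. Otx2 is to the right of 0 in the first and second panels, and Pou3f1 reaches 5.99 in the second; Foxd3 stays near 0 in all 3.

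The ERCC spike-in rows offer a scale that does not use the cells' total RNA, as long as wells received like amounts, which the labels do not state. Spike-ins were summed over all 188 wells of a library, so wells with little cell RNA also add to this scale. Wells under 6000 UMIs (order LIF_2i, rosette_LIM, primed_4d) numbered 28, 9 and 84 for R1 and 4, 38 and 18 for IB10. On the spike-in scale the median gene differed by −0.55 (log2) in rosette_LIM against LIF_2i, −0.56 in primed_4d against LIF_2i and −0.01 in primed_4d against rosette_LIM. The part of shallow wells in these shifts was not tested. Otx2 was still higher than in LIF_2i, by 1.87 in rosette_LIM (edgeR adjusted p = 0.00123) and by 2.02 in primed_4d (2.51e-05). Pou3f1 (5.44), Sox3 (1.92), Tcf15 (1.63) and Sall2 (2.38) kept their calls in primed_4d against LIF_2i. Foxd3 changed sign there, to −0.45 (edgeR adjusted p = 0.287). Of the genes called in rosette_LIM against LIF_2i 57.7% were higher with the main scale and 7.5% with spike-ins; in primed_4d against LIF_2i the shares were 48.3% and 16.2%, and between the lines 31.9% and 54.5%.

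The sums mix how many cells hold a transcript with how much each holds, so wells were also compared after thinning each to 5000 UMIs, leaving out shallower wells. This left 161 R1 and 184 IB10 wells of LIF_2i, 179 and 151 of rosette_LIM, and 104 and 174 of primed_4d; the same order of lines is used in what follows. Intervals are exact binomial (Clopper-Pearson) at 95% and cover counting error only. As background, 8 genes of other tissues (such as Krt10 and Apoa2), found of 12 listed, had a UMI in a median of 0 to 0.56% of these wells. The highest of them in each library was in 1.86% and 3.8% of LIF_2i wells, 5.03% (Krt10) and 1.32% of rosette_LIM wells, and 1.92% and 0.57% of primed_4d wells. Krt10 was at 3.20 to 7.03 CPM in the libraries, and whether that is background or low expression was not tested.

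Pou3f1 was found in 55.8% (45.7 to 65.5%) of R1 and 46.6% (39.0 to 54.3%) of IB10 primed_4d wells. In LIF_2i it was found in 2.48% and 1.63%, and in rosette_LIM in 3.91% and 3.31%. The R1 LIF_2i and IB10 rosette_LIM shares were above the highest background gene of their own library (1.86% and 1.32%). Those of IB10 LIF_2i and R1 rosette_LIM were below it (3.8% and 5.03%). At 10000 UMIs per well the primed_4d shares were 70.4% and 69.9%. Without thinning they were 86.5% and 75.3% of the same kept wells, and 50.5% and 71.8% of all 188 wells, of which 84 in R1 and 18 in IB10 had under 6000 UMIs. No order of the lines was read from these shares, and the CPM of the lines were 249.8 and 268.6.

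Tcf15 had a UMI in 12.4% and 8.15% of thinned LIF_2i wells, 16.2% and 13.9% of rosette_LIM wells, and 34.6% (25.6 to 44.6%) and 37.9% (30.7 to 45.6%) of primed_4d wells. Foxd3 was in 19.3% and 25%, 20.7% and 19.2%, and 24.04% and 25.9%, with intervals that overlap throughout. At 10000 UMIs per well Foxd3 was in 36.3% and 40.8% of LIF_2i wells, 35.5% and 34.01% of rosette_LIM wells, and 23.5% and 32.2% of primed_4d wells. These shares come from 1 random draw of UMIs per well. The exact mean over all possible draws of 10000 UMIs was 34.6% and 40.7%, 32.6% and 33.9%, and 30.1% and 36.9%. The order of the cultures differed with the depth and the draw, so none was read for Foxd3. Sall2 went from 1.86% and 1.09% and from 2.23% and 1.32% to 16.4% (9.82 to 24.9%) and 9.77% (5.80 to 15.2%). Tcf15 and Foxd3 were thus above the background genes in every library, and Sall2 in those of primed_4d. In the other cultures no Sall2 share was above the highest background gene of its own library.

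Sox3 was in 3.11% and 2.72% of LIF_2i wells, 2.79% and 0.66% of rosette_LIM wells, and 8.65% (4.03 to 15.8%) and 11.5% (7.16 to 17.2%) of primed_4d wells. Otx2 was in 0.62% and 2.17%, 3.35% (1.24 to 7.15%) and 5.96% (2.76 to 11.0%), and 8.65% (4.03 to 15.8%) and 11.5% (7.16 to 17.2%). The Sox3 share in R1 LIF_2i was above the highest background gene of its own library (1.86%). In IB10 LIF_2i and in rosette_LIM the Sox3 shares were below it. Otx2 was below it in LIF_2i and R1 rosette_LIM, and above it in IB10 rosette_LIM (1.32%) and primed_4d. Averaged over all possible draws of 5000 UMIs, Otx2 shares were nearer to each other between rosette_LIM and primed_4d. Rosette_LIM had a mean of 6.06% for R1 and 6.51% for IB10, primed_4d one of 7.33% and 7.83%. The rosette_LIM draws fell below these means and the primed_4d draws above them. Shares of Otx2 in rosette_LIM and primed_4d are set side by side only, since the libraries overlap in CPM. At 10000 UMIs per well they were 12.8% and 15.0% in rosette_LIM and 15.3% and 16.4% in primed_4d.

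**Figure D3:**
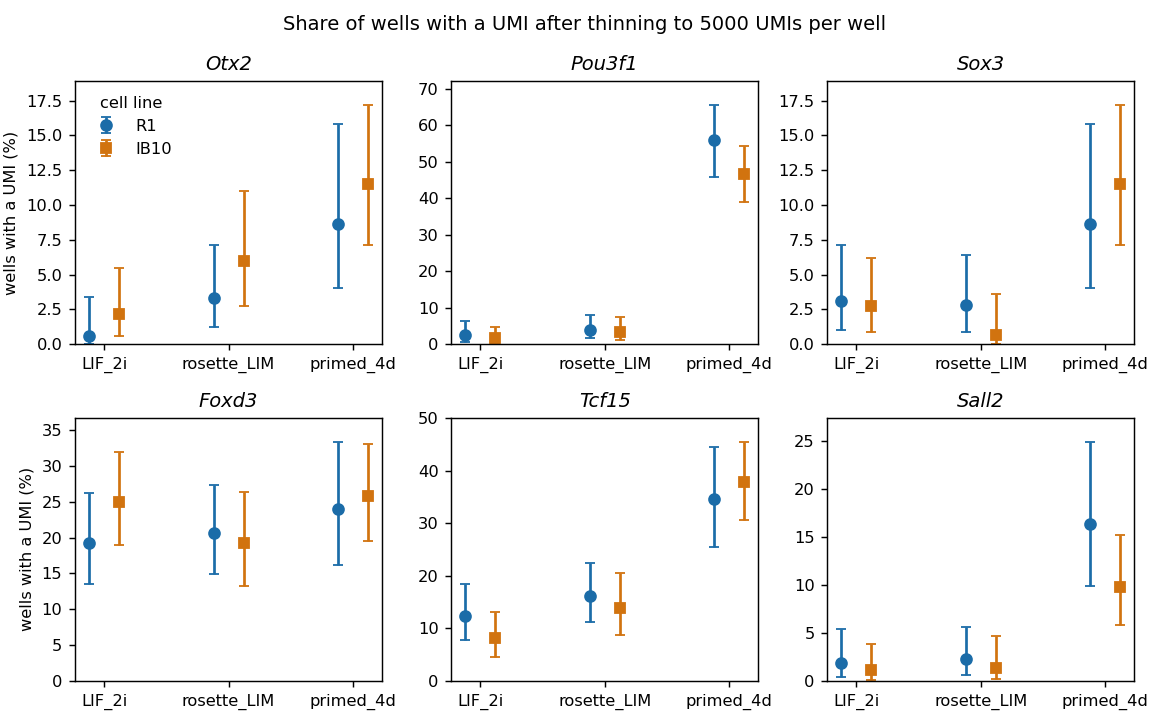
Share of wells with a UMI (vertical axis, percent, separate scales from 0) after thinning to 5000 UMIs, by culture and line; bars are exact 95% binomial intervals of counting error. Pou3f1 reaches 55.8% and 46.6% in primed_4d, and the Foxd3 intervals overlap in every culture.

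Pou3f1 was spread unevenly over primed_4d wells. In thinned R1 wells it had 1.25 UMIs on average, with a variance 1.92 times the mean, and in IB10 wells 1.14 UMIs and 2.46 times. No UMI was found in 44.2% (R1) and 53.5% (IB10) of wells, where a Poisson distribution of the same mean has 28.7% and 32.1%. At the other end 13.5% and 18.4% of wells had 3 or more, against 13.2% and 10.7%, and the highest wells held 6 and 10. IB10 thus exceeded the Poisson shares at both ends, and in R1 the excess lay at 0.

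Tcf15 had a variance of 1.90 times the mean in R1 and 1.26 times in IB10 primed_4d wells, where 65.4% and 62.1% of wells had none (53.5% and 60.0% in a Poisson distribution). Foxd3 reached 1.78 times in IB10 primed_4d and lay between 1.12 and 1.27 times in the other 5 libraries. Otx2, Sox3 and Sall2 lay between 0.92 and 1.31 times in all libraries, close to counting noise at these low levels.

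**Figure D4:**
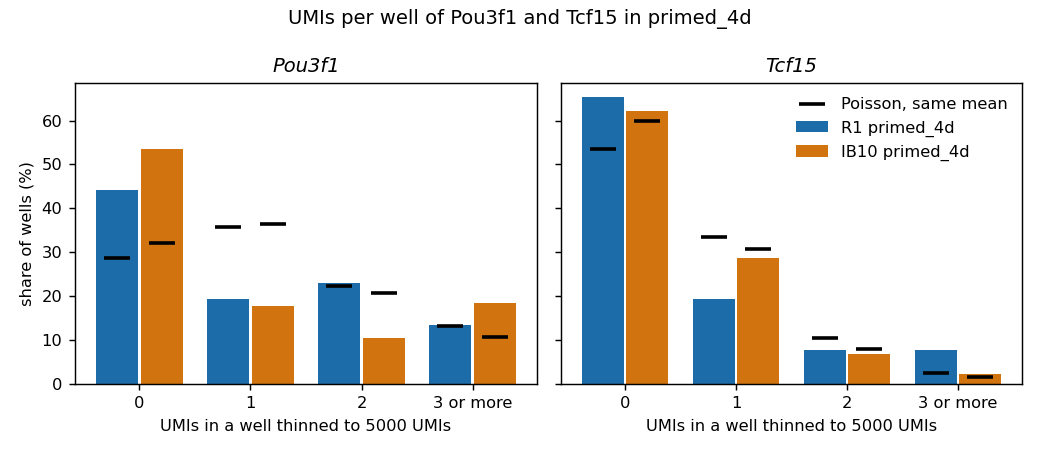
Share of primed_4d wells (vertical axis, percent) with 0, 1, 2 or at least 3 UMIs (horizontal axis) of Pou3f1 (left) and Tcf15 (right) after thinning to 5000 UMIs; bars are the lines and black dashes a Poisson distribution of the same mean. Pou3f1 exceeds Poisson at 0 in both lines, with 44.2% and 53.5% against 28.7% and 32.1%.

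Wells that held 3 or more members lay in primed_4d, apart from 1 in IB10 rosette_LIM. None of the 6 was detected in 63.4% and 64.1% of LIF_2i wells, 56.4% and 59.6% of rosette_LIM wells, and 20.2% and 14.9% of primed_4d wells. At least 3 were detected in 0%, 0%, 0%, 0.66%, 18.3% and 12.1% of wells in the same order. Pairs in primed_4d are given beside the number of wells that independent shares give. Otx2 and Pou3f1 shared 6 wells in R1 (5.0 if independent) and 9 in IB10 (9.3). Pou3f1 and Tcf15 shared 21 wells in R1 (20.1) and 23 in IB10 (30.7), and Pou3f1 and Sall2 11 (9.5) and 9 (7.9). Sox3 and Tcf15 shared 6 wells in R1 (3.1) and 5 in IB10 (7.6), and Foxd3 and Sall2 1 (4.1) and 3 (4.4). The counts lay on either side of the independent number, and no association was read from them. Over primed_4d wells, log2 thinned counts of Pou3f1 and Dnmt3b, a DNA methyltransferase of the formative programme, had r = 0.413 over 174 wells in IB10 and 0.215 over 104 wells in R1. Those of Pou3f1 and the naive gene Zfp42 had r = −0.297 and −0.093. In IB10 primed_4d these were the highest and lowest r of all gene pairs computed, and the next highest was 0.233 (Pou3f1 and Fgf5). In R1 primed_4d the highest was 0.263 (Sox3 and Nanog) and the lowest −0.184 (Pou3f1 and Tfcp2l1), so neither extreme pair was the same in both lines. Well counts are sparse and share library and depth, so the r values are descriptions.

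The members can be set beside the other genes of the formative and primed state, of which 24 were listed and tested. In rosette_LIM 4 were higher than in LIF_2i, 2 lower and 18 not called, so the list did not move together there. Foxp1, a forkhead factor, rose (log2 1.46 ± 0.15, edgeR adjusted p = 3.39e-05), as did Gng3, a G protein subunit (0.96 ± 0.16, 0.00229), the DNA methyltransferase Dnmt3a (0.72 ± 0.13, 0.00397) and the WNT binding protein Sfrp2 (0.80 ± 0.21, 0.0361). These 4 calls were lost with the spike-in scale. Etv4, an ETS factor that responds to FGF and MEK signalling, fell by 1.53 ± 0.18 (edgeR adjusted p = 0.000132) and Dnmt3b fell by 0.92 ± 0.16 (0.00391). The calls of Gng3 and Dnmt3b were lost without either LIF_2i library (edgeR adjusted p between 0.1 and 0.139), as were those of Dnmt3a (0.064 and 0.266) and Sfrp2 (0.311 and 0.369). In primed_4d against LIF_2i 20 were higher, 2 lower (Etv4 and Etv5) and 2 not called, and against rosette_LIM 20 were higher, 1 lower (Etv5) and 3 not called. Pim2, a kinase, rose by log2 5.13 ± 0.19 from LIF_2i (edgeR adjusted p = 1.4e-10), Fgf15 by 6.33 ± 0.41 (3.14e-08) and the primed marker Fgf5 by 5.30 ± 0.55 (3.44e-06). From rosette_LIM Lef1, a WNT pathway factor, rose by 4.75 ± 0.49 (edgeR adjusted p = 3.58e-06), with 9 and 34 UMIs there and 343 and 771 in primed_4d. Car4, a carbonic anhydrase, was also called higher, with 0 UMIs under LIF_2i, 0 and 2 under rosette_LIM, and 109 and 68 under primed_4d. The list's median difference was 0.36 in rosette_LIM against LIF_2i, 2.55 in primed_4d against LIF_2i and 2.08 in primed_4d against rosette_LIM, against 0.43, 2.49 and 2.14 for the members. List and members were both chosen with earlier results of these data known, so the medians are descriptions.

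Of 14 naive factors 13 were not called in rosette_LIM against LIF_2i and 1 was lower. That was Tfcp2l1 (log2 −1.05 ± 0.14, edgeR adjusted p = 0.000379, and 0.0764 without the IB10 LIF_2i library). Otx2 was thus high in libraries that still held Klf4 at 230.5 and 198.5 CPM, Prdm14 at 65.3 and 54.8 CPM and Tbx3 at 195.2 and 151.0 CPM. In primed_4d 13 of 14 were lower than in LIF_2i, and 13 lower than in rosette_LIM. The exception was Dppa3 (Stella), which was higher than in LIF_2i (0.94 ± 0.31, edgeR adjusted p = 0.0285) and not called against rosette_LIM (0.86 ± 0.32, 0.0509). Its side of the threshold moved in 7 alternatives of each comparison; without the R1 primed_4d library the first value was 0.39 (edgeR adjusted p = 0.45), and without the IB10 one the second was 1.44 (0.00434). From LIF_2i, Tfcp2l1 fell by 4.75 ± 0.18 (edgeR adjusted p = 1.43e-10), Tbx3 fell by 4.29 ± 0.19 (7.84e-10), Klf4 fell by 3.76 ± 0.16 (6.65e-10) and Prdm14 fell by 3.53 ± 0.28 (2.37e-07). Of 7 core factors 2 were higher in primed_4d than in LIF_2i, 3 lower and 2 not called, and against rosette_LIM 3 were higher, 3 lower and 1 not called. Lin28a rose by 2.17 ± 0.19 (edgeR adjusted p = 5.03e-07) and Tdgf1 by 1.22 ± 0.11 (5.14e-07) from LIF_2i, while Tcf7l1 fell by 0.64 ± 0.13 (0.00174).

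Most relatives of the members that could be tested were called lower in primed_4d than in LIF_2i, some of them weakly. Of 15 listed paralogs 8 passed the filter; 2 were higher and 6 lower than in LIF_2i, and 1 was higher, 5 lower and 2 not called against rosette_LIM. Sox1, of the SOXB1 family, went with Sox3: it was at 4.95 and 4.74 CPM in LIF_2i, 9.94 and 7.55 CPM in rosette_LIM and 27.8 and 14.2 CPM in primed_4d (log2 2.07 ± 0.27 from LIF_2i, edgeR adjusted p = 3.28e-05). From rosette_LIM its rise was 1.21 ± 0.26 (edgeR adjusted p = 0.00224), and 0.81 without the R1 primed_4d library (0.111). Sox2, which the family shares with the core factors, fell from 595.8 and 766.0 CPM in LIF_2i to 427.4 and 501.8 CPM in primed_4d, by 0.53 ± 0.12 (edgeR adjusted p = 0.00212). That call was lost without the IB10 LIF_2i library (−0.38, 0.129).

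Within the Spalt family, Sall3 fell from 41.2 and 35.2 CPM in LIF_2i to 3.85 and 9.44 CPM in primed_4d, by 2.49 ± 0.27 (edgeR adjusted p = 4.19e-06), as Sall2 rose. Sall1 rose by 0.67 ± 0.12 (edgeR adjusted p = 0.000431, and 0.794 with the spike-in scale). Sall4 fell by 0.38 ± 0.11 (edgeR adjusted p = 0.0136), a call lost without the R1 (0.15) or the IB10 (0.139) LIF_2i library and without the IB10 primed_4d library (0.161). Sall1 was the only paralog called in rosette_LIM against LIF_2i (0.59 ± 0.12, edgeR adjusted p = 0.00928), a call lost with the spike-in scale (0.04, 0.934), without the block (0.59, 0.0525) and without the R1 (0.51, 0.336) or IB10 (0.66, 0.16) LIF_2i library.

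Pou3f3, the only other gene of the Pou3f group read often enough to test, gave 12 and 18 UMIs under LIF_2i, 21 and 10 under rosette_LIM, but 0 and 2 under primed_4d. Msc, a helix-loop-helix relative of Tcf15, had 62 and 42, 31 and 31, and 0 and 1. Both were called lower in primed_4d (Msc against LIF_2i at an edgeR adjusted p of 2.49e-05, Pou3f3 at 0.013), while their relatives among the members rose. The Pou3f3 call was lost without the IB10 LIF_2i library (edgeR adjusted p = 0.145), without the R1 primed_4d library (0.127) and by DESeq2 (0.0713). Foxd1 (12 and 25, 14 and 4, 2 and 3 UMIs) was lower than in LIF_2i at an edgeR adjusted p of 0.0299, a call lost in 7 of the other ways of processing. Otx1, Pou3f2, Foxd2, Foxd4 and Scx held 11 to 30 UMIs each over all libraries and were not tested.

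Partners and inhibitors of Tcf15 moved unevenly. Of 7 listed, Id2 rose and Id3 fell in all 3 comparisons, and Id4 fell in those with primed_4d. The E proteins Tcf3, Tcf4 and Tcf12 and the inhibitor Id1 were not called in any. Id3, which blocks helix-loop-helix factors, went from 54.6 and 108.2 CPM in LIF_2i to 35.3 and 35.1 in rosette_LIM and 9.84 and 10.2 in primed_4d (log2 −2.97 ± 0.24 from LIF_2i, edgeR adjusted p = 2.88e-07). Id2, of the same family, went from 1.89 and 2.95 to 5.83 and 6.97 and to 15.6 and 15.3 CPM (log2 2.68 ± 0.31, edgeR adjusted p = 1.03e-05). In rosette_LIM against LIF_2i Id3 fell by 1.12 ± 0.20 (edgeR adjusted p = 0.00434), a call lost without the IB10 LIF_2i library (−0.60, 0.359). The Id2 rise there (1.42 ± 0.34, edgeR adjusted p = 0.0239) was lost in 7 of the other ways of processing, including without either LIF_2i library (1.16 and 1.74).

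Profiles were compared by the Euclidean distance between log2 CPM over the 6 libraries, each gene centred on its own mean. Nearest to Otx2 were Gm1564 (distance 0.496), Pax6, a homeodomain factor of neuroectoderm (0.711), and Agpat4 (0.736). Pax6 was at 1.89 and 2.69 CPM in LIF_2i, 10.3 and 14.1 CPM in rosette_LIM and 16.9 and 12.8 CPM in primed_4d. Gm1564 was at 2.77 and 4.23, 18.0 and 17.2, and 19.3 and 30.0 CPM. Both were thus low in LIF_2i alone. Nearest to Pou3f1 were Zfp608 (0.814), Fgf15 (0.973) and the immediate early gene Egr1 (1.02), which was at most 1.03 CPM in LIF_2i and rosette_LIM and at 24.8 and 24.5 CPM in primed_4d.

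Sox3 was nearest to Stk39 (0.447), Chst15 (0.510) and Lin28b (0.545), a let-7 blocking protein. For Tcf15 they were Slitrk5 (0.326), Nnt (0.346) and Ltbr (0.349), and for Sall2 they included Rassf6 (0.436) and A930024E05Rik (0.457). Foxd3 was nearest to Znrd1as (0.150), Dnalc4 (0.156) and Ptgr2 (0.170), genes that likewise varied little. Among the members Tcf15 and Sall2 were closest (0.914), then Sox3 and Tcf15 (1.07) and Sox3 and Sall2 (1.17), and Pou3f1 and Foxd3 farthest apart (6.25). Otx2 was closest to Tcf15 (2.33), farther than any of those 3 pairs.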

How the data were processed

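Values were deposited as 1 table for 6 libraries of 188 wells, an expected count for each gene in each well. Per the submitters' processing notes reads were handled with BWA on the mm10/GRCm38 build; the sources used here give no versions, no annotation and no plate of a library. All 1297 distinct deposited values equal, to 2 decimals, the molecule number that some whole number out of 4096 tags of 6 bases stands for, so they are UMI counts corrected for tag collisions and not scaled to depth. Of 19623 rows 91 are ERCC spike-ins, which took 1.75% of counts and were kept out of sizes and tests.

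Wells of a library are not replicates: values were summed per library and rounded. edgeR 4.0.16 (R 4.3.3) used TMM factors (0.987 to 1.02), filterByExpr (minimum count 10) and a quasi-likelihood fit of culture and cell line over 6 libraries, two-sided, with Benjamini-Hochberg adjustment over 12098 genes and a threshold of 0.05. The biological coefficient of variation was 0.103. The line is the block because libraries with the same number come from the same line per the labels; IB10 minus R1 deviations correlated across genes by 0.137, 0.178 and 0.081 between cultures. Nothing in the labels names separate cultures within a line, and p-values then cover only how these libraries vary, which may be technical. No 2 wells held identical values. CPM is scaled to the library total, with no TMM factor. Log2 values of single lines and of profiles use the TMM factors and a prior count of 2. Wells were thinned to 5000 whole UMIs recovered from the deposited values, with a fixed seed, in 1 draw; the share expected over all draws was computed from the hypergeometric distribution, added after seeing the data. The fit was also run on simulated counts, with the same dispersion (0.0106) for every gene and no line difference. That run cannot show how the fit performs on these libraries, where genes may differ in spread.

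The members and lists were chosen with earlier results of these data known. Named are all members, per member the 3 nearest profiles (1 of them is not reported here), per list and culture comparison at most the 4 called genes of largest change, paralogs with 10 or more UMIs, and markers; other genes (such as Dppa3, Dnmt3a and Sfrp2) named were chosen after their values were seen. Alternatives were RLE factors, library totals, spike-in sizes, no filter, no line term, wells of at least 6000 UMIs, wells over 4 times the median left out, each library left out, limma 3.58.1 on log2(CPM + 5) of sums or of well means, and DESeq2 1.42.0. Leaving out wells over 4 times the median of wells of at least 5000 UMIs was chosen after seeing the data, since the planned rule took 55 wells with 70.0% of UMIs from R1 primed_4d.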

Additional observations from a re-analysis of the deposited data

Results flagged for a closer look

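3 results had log2 values of opposite sign in the lines, and none of these differences between lines was tested. Sox3 in rosette_LIM against LIF_2i was 0.123 (log2) in R1 and −0.446 in IB10. Foxd3 in the same comparison was 0.098 in R1 and −0.331 in IB10, and in primed_4d against rosette_LIM it was −0.02 in R1 and 0.43 in IB10. The R1 value of −0.02 is no fall in CPM, which was 49.35 in rosette_LIM and 49.41 in primed_4d. Its sign comes with the TMM factors used in the log2 values of single lines. None of the 3 passed the test over both lines.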

How the results depend on the processing

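The calls of Otx2, Pou3f1, Sox3, Tcf15 and Sall2 in primed_4d against LIF_2i, of Otx2 in rosette_LIM against LIF_2i, and of the 4 members called in primed_4d against rosette_LIM held in all 17 alternatives run for each. The rise of Pou3f1 in rosette_LIM did not: it was 0.445 with the spike-in scale, 1.005 with no replicate block, 0.95 without wells over 4 times the median, 0.952 with the rule added later, 0.528 with limma on sums, 0.434 with limma on well means, and 0.61 to 1.459 with single libraries left out. The cause was not tested. Without the line as a block no other member's call changed, and 162 genes were higher and 119 lower in rosette_LIM against LIF_2i, in place of 387 and 284.

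Differences that were not called changed sign as follows. With spike-ins, Foxd3 in primed_4d against LIF_2i was −0.446, Tcf15 and Sall2 in rosette_LIM against LIF_2i were −0.184 and −0.06, and the line terms of Pou3f1 and Tcf15 were 0.165 and 0.096. Without wells over 4 times the median the line term of Pou3f1 was 0.224. With single libraries left out the ranges were −0.056 to 0.367 for Otx2 and −0.002 to 0.42 for Foxd3 in primed_4d against rosette_LIM, −0.704 to 0.306 for Sox3 and −0.339 to 0.094 for Foxd3 in rosette_LIM against LIF_2i, −0.029 to 0.194 for Foxd3 in primed_4d against LIF_2i, and, between the lines, −0.232 to 0.121 for Pou3f1 and −0.222 to 0.039 for Tcf15. The line term of Foxd3 kept its sign, at 0.307 to 0.523, and was called without either rosette_LIM library (edgeR adjusted p = 0.00927 and 0.00971).

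Counts over all genes moved more. In rosette_LIM against LIF_2i there were 42 higher and 519 lower with spike-ins, 170 and 109 with DESeq2, 231 higher with limma on well means, 474 lower with no filter, and 29 to 564 higher and 35 to 431 lower with single libraries left out. In primed_4d against LIF_2i there were 672 higher with spike-ins, 1343 higher and 1432 lower with DESeq2, and 1041 to 2689 higher and 1283 to 2788 lower with libraries left out. In primed_4d against rosette_LIM there were 897 higher and 1140 lower with spike-ins, 1222 and 1479 with DESeq2, and 1340 to 1847 higher and 1720 to 2053 lower with libraries left out. Between the lines 29 genes were higher and 62 lower; there were 12 and 10 with spike-ins, 116 and 212 with no filter, 40 lower with the rule on large wells added later, 18 higher with limma on sums, 16 and 25 with limma on well means, 15 and 35 with DESeq2, and 4 to 154 and 3 to 225 with libraries left out. Where 1 library of a culture was left out, the remaining one was assumed to vary like the others. Shares of wells with a UMI rise with the depth to which wells are thinned. The level of a member with under 100 UMIs in a library rests on few molecules, which limits Otx2 in every culture, and Sox3, Sall2 and Pou3f1 in LIF_2i and rosette_LIM.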
